A study of Mus musculus with 6 samples.

Results

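The 3 wild-type RNA libraries of growing 3T3-L1 cells were described, out of 6 libraries in the series, by the absolute level of every gene. They were chosen by their label alone, and the Ube3d knockout libraries entered no value. 3T3-L1 is a mouse embryonic fibroblast line that is committed to the fat lineage but becomes fat only after confluence and a hormone mix. The labels name no engineered change and no differentiating agent for these cells, which grew in high-glucose medium with serum and antibiotics and were passaged before they became confluent. Libraries that keep the strand were made from total RNA after removal of ribosomal RNA. The titles call the samples biological replicates of a single cell line. The labels do not say whether the cultures were grown apart, so part of the spread between them may be technical.

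A preadipocyte is a mesenchymal cell that has chosen the fat lineage without yet storing fat. It is recognised by receptors for platelet-derived growth factor, by mesenchymal transcription factors and by a secreted matrix rich in fibrillar collagen. Fat conversion runs through a cascade in which early factors of the C/EBP family switch on Pparg and Cebpa, which then switch on the genes of lipid storage. Genes that command other lineages, such as those of muscle, bone or epithelium, are normally off in such cells.

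The deposited table held counts of reads for 24420 genes besides Rn45s, the ribosomal RNA precursor, in libraries of 23767181, 29389480 and 26862276 counts. Rn45s took 8.91%, 7.78% and 7.28% of them and was left out. CPM scales each count to the library total that remains, to a common total. TPM first divides the count by the exon length, so that genes can be compared, and all levels below are TPM unless CPM is named. Values after ± are the SD over the 3 libraries (n = 3). A count of 3 was worth 0.139, 0.111 and 0.120 CPM, and for a gene of 1000 bases 0.301, 0.245 and 0.265 TPM. A gene with no count is therefore given with the highest TPM that 3 counts would have made in any of the libraries; such limits cover counting error only. In bulk RNA, fewer cells with a transcript and less of it per cell cannot be told apart, and a level of RNA is not a level of protein.

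Of all genes, 11650 (47.7%) reached 1 TPM in each of the 3 libraries, and 9982 (40.9%) had 3 counts or fewer in each. No count at all was found for 7526 genes. These shares, 47.7% and 40.9%, are the background against which the gene lists below are read. A total of 8484 genes reached 10 TPM in every library, 1621 reached 100 TPM and 122 reached 1000 TPM. The libraries ranked genes alike: across genes, Spearman's rho between pairs lay between 0.9746 and 0.9749. For genes with 300 to 1000 counts the median CV over the libraries was 4.90%, beside a true counting CV of 4.14%. For genes with at least 10000 counts it was 2.11%, beside 0.814%. The median of CVs taken from 3 libraries tends to lie below the true CV, so the excess over counting is understated. Each pair still differed by more than counting error, with a chi-square per gene of 4.17, 2.92 and 3.88.

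The RNA was unevenly shared among genes. The 100 highest genes held 33.6%, 32.7% and 33.0% of all TPM in replicates 1, 2 and 3, and the 1000 highest held 64.4%. The 122 genes at 1000 TPM or more in every library held 35.6% of TPM and had a median exon length of 863 bases. Of them, 62 encode proteins of the cytosolic ribosome. The 6863 genes that reached 10 TPM but not 100 TPM in every library held 26.0%. Among protein-coding genes 52.8% reached 1 TPM in all libraries, with a median of 26.8 TPM, and among long noncoding genes 21.2% did, with a median of 6.07 TPM.

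**Figure D1:**
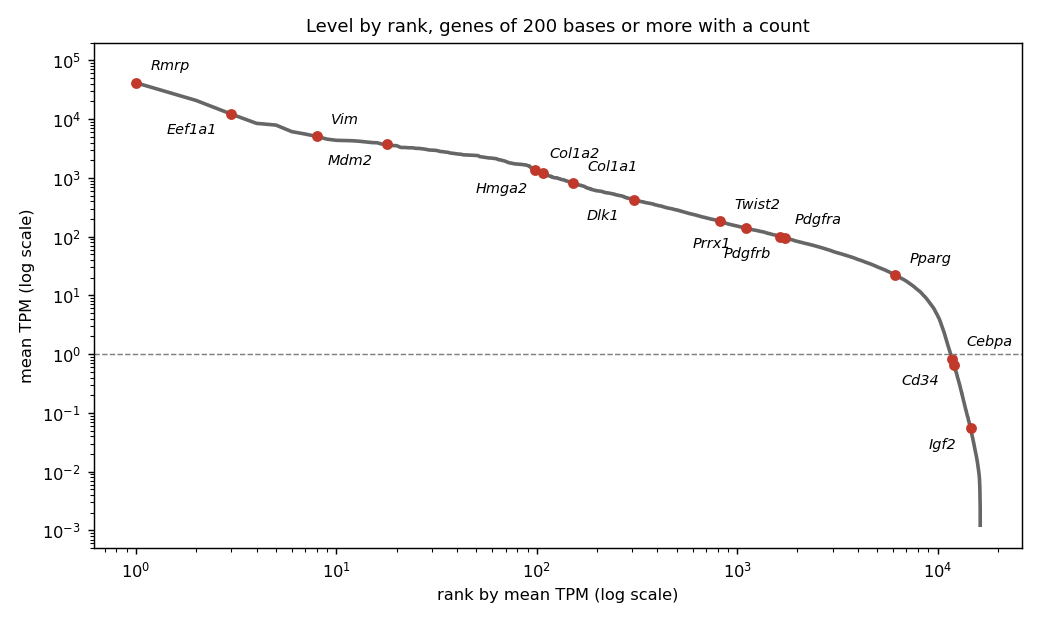
Mean TPM of the 3 wild-type libraries (log scale) against rank (log scale) for genes of 200 bases or more with a count; red points are named genes and the dashed line is 1 TPM. Col1a2 (rank 98) and Col1a1 (rank 152) lie high on the curve, while Cebpa and Cd34 lie just under 1 TPM.

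Small nuclear and nucleolar RNAs, the translation machinery and the cytoskeleton led the ranking of the 23129 genes of 200 bases or more. Rmrp, the RNA of an RNase complex that processes ribosomal RNA, was first at 44049, 40047 and 40722 TPM in replicates 1, 2 and 3. Rpph1, the RNA of RNase P, which trims transfer RNAs, was second at 21410.4, 21158 and 19757 TPM. The elongation factor Eef1a1 followed at 12150.0 ± 74.0 TPM. Both small RNAs are only 275 and 325 bases long, which raises a value divided by length; on the CPM scale Eef1a1 stood at 9909 ± 116 and Rmrp at 5218 ± 322.

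Of the 25 highest genes, 13 encode ribosomal proteins, from Rpl12 at 5570.3 ± 132 to Rps21 at 3180.3 ± 91.5 TPM. Genes of a fibroblast cytoskeleton stood among them. Actb, cytoplasmic actin, was at 8590.2, 8430.3 and 8404 TPM. Vim, the intermediate filament of mesenchymal cells, was at 5135, 5069.6 and 5027 TPM. S100a4, a calcium-binding protein also known as fibroblast-specific protein, stood at 7476, 7824 and 8464 TPM, above Vim in every library and below Actb in replicates 1 and 2. Its relative S100a6 was at 4207 ± 73.4 TPM and the lectin Lgals1 at 6129 ± 206 TPM. Ftl1 (ferritin light chain), Hsp90ab1 (a chaperone) and Ppia (a prolyl isomerase) were at 4093, 3955 and 3739.9 TPM.

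The remaining gene of the 25 was Mdm2, the ubiquitin ligase that holds p53 down. It stood at 3512, 3897 and 3724 TPM from 108638, 148035 and 130580 counts, at rank 18. By CPM, where long genes gain, it was the fifth gene of the cell at 5241 ± 222. Mdm2 lies at chr10:117688875-117710758 on the minus strand (GRCm38). The neighbouring gene Slc35e3, of a sugar transporter family, at chr10:117733678-117746358, was also high at 1222, 1307 and 1243 TPM, with 20.03% of its words shared with other genes. The other genes around the pair were lower than both. Rap1b was at 238 ± 9.95, Nup107 at 74.0 ± 1.58, and on the plus strand Mdm1 at 10.8 ± 0.746 and Cpm at 5.36 ± 0.334 TPM. The neighbours were looked up after the value of Mdm2 had been seen. Copy number was not analysed here.

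All 6 preadipocyte markers were present, and each kept its place in the order in all libraries. Col1a1, a chain of the main fibrillar collagen, stood at 829, 831 and 770.3 TPM in replicates 1, 2 and 3 (rank 152). Dlk1, the membrane protein Pref-1 that holds back fat conversion, stood at 443, 425 and 410.1 TPM. The values of Dlk1 all lay below those of Col1a1 and above those of every other marker. Twist2, a basic helix-loop-helix factor of dermal and limb mesenchyme, was at 179, 188 and 177 TPM. Prrx1, a homeodomain factor of limb and skeletal mesenchyme, was at 137, 139 and 142 TPM. Next to each other at the end of the order were the receptors. Pdgfra was at 98.1, 100.2 and 102 TPM and Pdgfrb at 94.9, 97.6 and 92.9 TPM, with ranges that came close without overlapping.

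The marker genes are spread over the genome: Pdgfra at chr5:75152291-75198204, Pdgfrb at chr18:61045150-61085067, Prrx1 at chr1:163245119-163313650, Twist2 at chr1:91801477-91848027, Dlk1 at chr12:109452823-109463336 and Col1a1 at chr11:94936270-94951856 (GRCm38). Dlk1 is part of an imprinted region, where the maternal copy makes noncoding RNAs in place of Dlk1. Meg3, one of those, had no count in any library, which allows up to 0.0232 TPM, and Rian of the same region had 3, 7 and 7 counts.

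**Figure D2:**
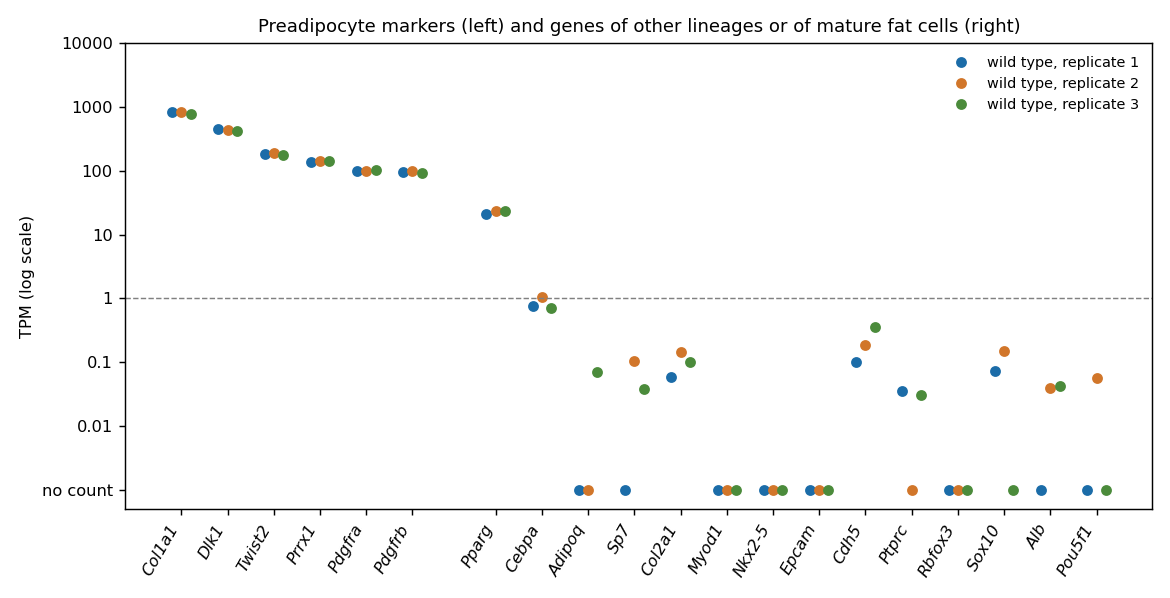
TPM (log scale) of the 6 preadipocyte markers and of 14 genes that mark or command fat cells or other lineages, each point a wild-type library, with the dashed line at 1 TPM. The markers lie between 92.9 and 831 TPM with tight libraries, Pparg lies near 22.4 TPM, and most genes to its right lie below 1 TPM or at no count.

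Transcription factors of mesenchymal identity were mostly present. Of 48 listed, 34 (70.8%) reached 1 TPM in all libraries, beside 47.7% of all genes, and 12 had 3 counts or fewer in each. That floor, 3 counts or fewer in every library, held 40.9% of all genes. The highest was Hmga2, an architectural factor of embryonic and transformed mesenchyme, at 1189, 1211 and 1233 TPM (rank 107). It exceeded the next, Twist2, in every library. Below Prrx1 came Nr2f2 at 95.4 ± 3.67, Prrx2 at 90.5 ± 4.23, Snai1 at 76.3 ± 4.95, Tcf12 at 70.7 ± 0.615 and Osr1 at 68.8 ± 2.89 TPM. Nr2f2, a nuclear receptor of venous and stromal cells, and Prrx2 overlapped in range, as did Snai1, Tcf12 and Osr1.

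The repressors of epithelial genes were all expressed, at different levels. Snai1 stood at 77.5, 80.7 and 70.9 TPM and Snai2 at 33.6, 34.6 and 37.7 TPM, without overlap. Zeb1 was at 32.5 ± 0.121 and Zeb2 at 29.4 ± 0.573 TPM. Twist1 was at 36.1 ± 0.958 TPM, far under its paralogue Twist2. Hmga1, the other member of the Hmga family, was counted at 3.28 ± 0.991 TPM only, but 69.1% of the 50-base words of its transcript also occur in other annotated genes, so its level is uncertain.

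Factors of particular regions were in part without a count and in part present. Tbx5 of the forelimb and heart and Tbx4 of the hindlimb had no count, which allows up to 0.0763 and 0.0923 TPM. Tcf21 of visceral and cardiac fibroblasts and Six2 of kidney and palate mesenchyme had none either, with limits of 0.245 and 0.143 TPM. Meox1, Meox2 and Msx2 were also among the 9 members with no count. Among those present, Shox2 of the proximal limb was at 34.0 ± 1.87 TPM and Foxd1, a factor of kidney stroma, at 4.97 ± 0.805 TPM. Tbx15 and Tbx18, both factors of trunk and limb mesenchyme, were at 26.0 ± 1.71 and 18.6 ± 0.583 TPM, and En1, a factor of the dermal fibroblast lineage, was at 15.3 ± 0.858 TPM.

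Regulators of fat conversion were present in larger part: 36 of 42 (85.7%) reached 1 TPM in all libraries, and 2 had no count. The list mixes factors that promote conversion with factors that oppose it, such as Zfp521. Its share is therefore not a measure of how far a fat programme is on. The list leads with general factors. Lmna, the nuclear lamin, was at 701 ± 9.37 TPM, the nuclear factor Nfix at 254 ± 2.90, Klf6 at 117 ± 4.89, the sterol regulator Srebf2 at 101 ± 4.65, Yap1 at 98.6 ± 0.791 and Wwtr1 at 83.3 ± 0.713 TPM. Yap1 and Wwtr1 are the coactivators of the Hippo pathway.

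The C/EBP cascade ran from high levels at its start to about 1 TPM or less at its end. Cebpb, which acts first, stood at 88.9, 81.6 and 87.9 TPM. Cebpd, its early partner, stood at 17.9, 18.5 and 20.1 TPM. Cebpa, which maintains the fat state, stood at 0.759, 1.05 and 0.703 TPM, with replicate 2 alone above 1 TPM. No range of these overlapped another, and Cebpb held 60.2% ± 1.61 of the summed TPM of 5 family members. Pparg, the receptor that commands fat conversion, stood at 21.2, 23.0 and 23.1 TPM. It was below its relative Ppard in every library, which stood at 30.6, 30.6 and 26.5 TPM.

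Factors reported to commit cells to the fat lineage ranged widely. Ebf1 was at 22.4 ± 0.451 and Ebf3 at 18.4 ± 1.89 TPM, whereas Ebf2, known from brown fat precursors, was at 0.561, 0.546 and 0.304 TPM. Zfp423 was at 0.633, 1.01 and 0.558 TPM and Zfp521, its relative that opposes fat conversion, at 12.7, 13.9 and 12.9 TPM. Prdm16, the brown fat regulator, and Klf15, a factor of later conversion, had no count, with limits of 0.0349 and 0.131 TPM. The glucocorticoid receptor Nr3c1, the target of a hormone in the usual mix, was at 56.9, 56.4 and 60.6 TPM.

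Surface antigens spanned the whole range of levels. Of 29, 19 (65.5%) reached 1 TPM in all libraries, 10 reached 100 TPM and 3 were at the floor. The tetraspanin Cd63 was highest at 994, 994 and 1022 TPM, followed by the integrin chain Itgb1 at 489 ± 12.5, Cd9 at 371 ± 14.2, the hyaluronan receptor Cd44 at 345 and Cd81 at 306 ± 7.92 TPM. Antigens used to sort stromal cells were next, with Thy1 at 229, 228 and 220.5 TPM, Ly6a (Sca-1) at 207, 209 and 196 TPM and the podoplanin gene Pdpn at 146, 152 and 149.6 TPM. Thy1 lay above Ly6a in each library and Ly6a above Pdpn.

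Other sorting antigens were near or under 1 TPM. Cd34, used with Ly6a to isolate fat precursors from tissue, stood at 0.765, 0.654 and 0.573 TPM. Eng (endoglin) stood at 0.813, 1.39 and 1.01 TPM and Nt5e (CD73) at 0.308, 0.251 and 0.321 TPM. Both are standard antigens of mesenchymal stem cells. Eng shares exonic sequence with Fpgs on the other strand (20.8 TPM), and the part of Fpgs in its count was not tested. Dpp4 and Ngfr had no count, with limits of 0.0477 and 0.0883 TPM, and Pi16, which marks the same tissue precursors as Dpp4, had 4, 3 and 3 counts.

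Genes of fibrillar collagen stood high among matrix genes. Collagens are trimers of chains. Levels of the chain genes are given per exon length, as RNA, and are not the ratio of chains in the protein. Col1a2 stood at 1354, 1392 and 1352 TPM and was higher than its partner Col1a1 in every library. Col3a1 stood at 271, 285 and 284 TPM. The chains of collagen V, which sets the width of fibrils, were at 184 ± 7.07 (Col5a2) and 84.0 ± 2.98 TPM (Col5a1). Of 11 fibrillar chains, 6 (54.5%) reached 1 TPM in all libraries. The cartilage chain Col2a1 had 3, 9 and 6 counts and Col24a1 none.

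Collagen VI, a beaded filament around cells, was represented by Col6a1 at 285, 294 and 291, Col6a2 at 192, 188 and 187 and Col6a3 at 122, 129 and 120.5 TPM. Next among chains outside the fibrillar and basement membrane groups was Col16a1 at 83.9 ± 6.86 TPM. Col12a1 and Col8a1 were at 20.6 ± 0.573 and 19.1 ± 0.772 TPM, and Col14a1, a fibril-associated chain of mature dermis and tendon, had 7, 6 and 3 counts. In this group 9 of 25 chains (36.0%) reached 1 TPM in all libraries.

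Basement membrane genes were present in part. Nid1 (nidogen) was at 336, 340.3 and 341 TPM, Col4a1 at 218 ± 2.57 and Col4a2 at 146 ± 1.58 TPM. Those collagen IV genes lie head to head at chr8:11198423-11312826 and chr8:11312829-11449287. Among laminin chains Lamb1 was at 130.5 ± 1.91, Lamc1 at 89.1 ± 1.65 and Lama4 at 23.0 ± 0.907 TPM. Lama1 and Lamc3 had no count, with limits of 0.0316 and 0.0507 TPM. Hspg2 (perlecan) was at 96.0 ± 4.46 TPM. In all, 13 of 22 genes (59.1%) reached 1 TPM in every library.

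Matrix glycoproteins were more often present, 27 of 36 (75.0%). Fn1 (fibronectin) stood at 1009.7, 1008 and 1005 TPM. Sparc was at 619.8, 629 and 619 and Fbln2 at 549.9, 548 and 521 TPM. Efemp2, Thbs1, Cyr61, Ecm1 and Thbs2 followed between 187 and 275 TPM. The fibre-forming glycoproteins were unlike one another. Fbn1 (fibrillin) was at 89.1 ± 1.27 TPM, while Fbn2 and Eln (elastin) had no count, with limits of 0.0287 and 0.0795 TPM. Thbs4 and Vtn were also without a count. Ctgf, a usual companion of Cyr61 as a target of Yap1, was at 8.63, 10.4 and 10.2 TPM beside 195 ± 3.89 TPM for Cyr61. Postn, of activated fibroblasts, was at 11.8 ± 0.165 TPM and Tnc at 90.0 ± 3.21 TPM.

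Bgn (biglycan), a small proteoglycan that binds collagen, was the highest matrix gene of all lists at 2205, 2214 and 2224 TPM (rank 56). Its closest relative Dcn (decorin) was at 40.0, 37.1 and 37.4 TPM, and Lum (lumican), which is abundant in many tissue fibroblasts, had 0, 2 and 1 counts. Vcan (versican) was at 243 ± 3.49 TPM. Cell-surface Sdc4 was at 267 ± 4.69, Sdc2 at 90.9, Sdc1 at 89.9 ± 1.52 and Gpc1 at 88.6 ± 3.90 TPM. Kera, Gpc5 and Spock1 had no count. Of 28 proteoglycan genes 15 (53.6%) reached 1 TPM in all libraries, beside 47.7% of all genes. Another 11 had 3 counts or fewer in every library, a share close to the 40.9% of all genes.

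Enzymes that make collagen were nearly all present, 19 of 21 (90.5%), and none was at the floor. P4hb, a subunit of the prolyl hydroxylase, was at 814 ± 6.80 TPM. Pcolce, which speeds propeptide removal, was at 593 ± 10.5, the collagen chaperone Serpinh1 at 560.0 ± 10.2 and the crosslinking oxidase Lox at 254 ± 6.10 TPM. Loxl2 had 8, 9 and 3 counts, but 45.8% of its words are shared with another annotated gene. Of 26 proteases and inhibitors 11 (42.3%) were present. Timp2 at 488, 485 and 473 TPM and Timp1 at 386, 394 and 360.4 TPM, both inhibitors, stood above the proteases Mmp14 at 194 ± 5.22 and Mmp2 at 184 ± 3.39 TPM. Mmp14 is the membrane protease that activates Mmp2, and the values of Mmp14 lay just above those of Mmp2. Mmp9 was at 0.634 ± 0.193 TPM, and Mmp7, Mmp8, Mmp16, Mmp20 and Mmp27 had no count.

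Growth factor receptors were read from 55 receptor tyrosine kinases, of which 27 (49.1%) reached 1 TPM in all libraries, close to the 47.7% of all genes. Axl, the receptor of Gas6, was highest at 409.9, 424 and 411 TPM. Fgfr1 was next at 177, 185 and 176 TPM and held 91.9% ± 0.21 of the summed level of 4 FGF receptors. The collagen receptor Ddr2, at 102, 103 and 106 TPM, then Pdgfra, Ryk at 97.1 ± 0.823 and Pdgfrb overlapped with their neighbours in the order of this longer list. Met and Epha2 were at 47.6 ± 0.943 and 46.3 ± 0.981 TPM.

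Receptors for insulin and EGF-like factors were modest or low. Igf1r stood at 33.6, 35.8 and 34.0 TPM and Insr at 16.7 ± 0.617 TPM, without overlap. Erbb2 was at 28.7, 32.5 and 30.7 TPM, while Egfr was at 1.04, 0.963 and 1.14 TPM and Erbb4 had no count, with a limit of 0.0706 TPM. Kit, the stem cell factor receptor, Flt4 and Tie1 of endothelium, and Ntrk2 of neurons had no count. Epha5, Epha6, Ephb1 and Insrr were also among the 10 without a count. Not all receptors of endothelium and neurons were silent. Flt1, a relative of Flt4, reached 1 TPM but not 10 TPM in every library. Ntrk3, a relative of Ntrk2, ranked just above Csf1r, which reached 1 TPM in all libraries.

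For TGF-beta and BMP signals 8 of 14 receptors (57.1%) were present. The coreceptor Tgfbr3 was highest at 89.4, 91.0 and 87.8 TPM, the BMP receptor Bmpr1a was at 67.4 ± 1.92 and Bmpr2 at 38.8 ± 0.815 TPM. The signalling receptors Tgfbr2 and Tgfbr1 were at 30.2 ± 1.51 and 21.3 ± 1.34 TPM. Acvr1c, a receptor of mature fat cells, had no count, with a limit of 0.0332 TPM. Among Wnt, Notch and hedgehog receptors 12 of 19 (63.2%) were present. Smo, the hedgehog transducer, was at 115, 113 and 113 TPM, and the Wnt coreceptors Lrp6 and Lrp5 were at 49.5 ± 1.38 and 34.9 ± 0.471 TPM. Notch2 at 44.0 ± 1.20 TPM held 95.7% ± 0.18 of the summed level of 4 Notch receptors. Fzd2 was the highest Frizzled of the list at 34.0 ± 1.24 TPM, and Fzd6 and Fzd10 had no count.

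Nuclear receptors were present in 23 of 49 cases (46.9%). After Nr2f2 came the retinoic acid receptor Rarg at 72.4, 72.3 and 74.8 TPM, then Nr3c1 and Rxra at 40.8 ± 1.85 TPM. Rarg held 71.1% ± 1.27 of the 3 retinoic acid receptors. The estrogen receptor Esr1 had 0, 1 and 0 counts. Hnf4a, Hnf4g, Rxrg, Esrrg, Nr5a2, Nr0b1, Nr1h5, Nr2e1 and Nr2e3 had none.

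Integrins formed a short set, with 9 of 26 chains (34.6%) present. Itgb1 stood at 479, 485 and 503 TPM. Its fibronectin-binding partner Itga5 stood at 167, 173 and 159 TPM, the vitronectin-binding chain Itgav at 156, 161 and 160.3 TPM and the laminin-binding chain Itga6 at 75.2, 78.7 and 75.9 TPM. Itga5 and Itgav overlapped, and both lay above Itga6. Itga4 and the leukocyte chain Itgad had no count. Other chains known from blood cells were present: Itgb7 of leukocytes and Itga2b of platelets reached 1 TPM but not 10 TPM in every library.

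Receptors for metabolic hormones were few, 9 of 24 (37.5%). Igf2r was at 82.4 ± 0.887, the adiponectin receptors Adipor1 and Adipor2 at 67.3 ± 2.30 and 59.5 ± 0.635, and the growth hormone receptor Ghr at 40.5 ± 0.762 TPM. Adrb3, the adrenergic receptor of mature fat, had no count, with a limit of 0.108 TPM. Ffar4, Ffar2, Hcar1, Mc2r, Prlr and Ptger3 had none either.

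Secreted ligands and chemokines were present in 36 of 62 cases (58.1%). Ptn (pleiotrophin) was highest at 410.4, 396 and 401 TPM. The monocyte chemokines Ccl7, at 305, 308 and 331 TPM, and Ccl2, at 311, 304 and 283 TPM, are neighbours at chr11:82045712-82047523 and chr11:82035577-82037452, and their ranges overlapped. Fgf7 was at 261, 276 and 273 TPM and Csf1, the macrophage growth factor, at 175, 191 and 178 TPM. Cxcl12, Inhba and Kitl were at 92.3, 85.3 and 71.1 TPM. Several strong embryonic signals had no count: Bmp2, Bmp4, Bmp7, Shh, Wnt11 and Pdgfd, with limits from 0.0843 TPM for Bmp2 to 0.167 TPM for Pdgfd. Igf1 was at 1.95 ± 0.157 TPM. Igf2 had 1, 4 and 3 counts, but 75.9% of its words are shared with other annotated genes, so silence cannot be read from that count.

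Position along the body axis is written in the HOX genes, which lie in 4 clusters. Of 39 HOX genes 16 (41.0%) reached 1 TPM in all libraries and 14 were at the floor. Hoxd8 was highest at 41.4, 40.7 and 42.0 TPM. In the Hoxa cluster Hoxa3 stood at 20.1, 21.6 and 23.8 TPM, Hoxa2 at 18.6, 20.9 and 22.4 TPM, Hoxa7 at 13.5 ± 0.390 and Hoxa5 at 12.6 ± 1.45 TPM. The level then broke off: Hoxa9 had 3, 1 and 4 counts, Hoxa10 was at 0.861, 0.857 and 1.63 TPM, and Hoxa11 and Hoxa13 had no count. Hoxa3 overlaps the antisense RNAs Hoxaas2 and Hoxaas3, so its level is uncertain where strand was not used in counting.

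The other clusters were sparser. Hoxb2, Hoxb3 and Hoxb4 were at 12.3 ± 0.650, 7.09 ± 1.09 and 6.50 ± 0.755 TPM, and no other Hoxb gene reached 1 TPM. In the Hoxd cluster Hoxd9 was at 8.40 ± 0.756 TPM beside Hoxd8, and Hoxd11, Hoxd12 and Hoxd13 had no count. In the Hoxc cluster the last gene was the highest: Hoxc13 was at 9.60, 8.18 and 9.63 TPM and Hoxc6 at 1.46 ± 0.307 TPM, whereas Hoxc10 and Hoxc12 had no count and Hoxc11 had 0, 0 and 2 counts.

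**Figure D3:**
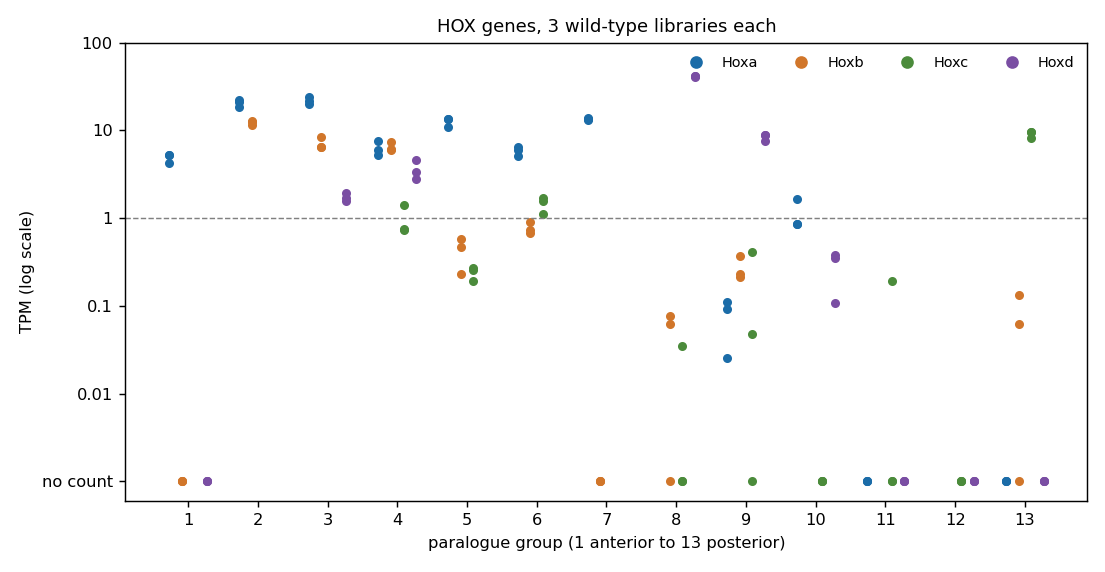
TPM (log scale) of the HOX genes by paralogue group, anterior to posterior, coloured by cluster, with a point for each wild-type library and the dashed line at 1 TPM. The anterior Hoxa genes, Hoxd8 and the isolated Hoxc13 stand above 1 TPM, and most other posterior genes lie at or near no count.

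Genes of proliferation were all on: each of the 34 genes of that list reached 1 TPM in every library, with a median of 124 TPM. Cdk4 stood at 697, 673 and 664 TPM and its activator Ccnd1 at 548, 550.4 and 554 TPM. Ccnd2 was at 379 ± 3.02 TPM, so that Ccnd1 held 54.5% ± 0.20 of the 3 D cyclins. Pcna and Top2a, of DNA synthesis and mitosis, were at 374 ± 12.7 and 303 ± 11.3 TPM. The brakes were present too. Cdkn2a, whose gene makes p16 and p19ARF, stood at 245, 236 and 225 TPM and Trp53 (p53) at 235, 233 and 219 TPM. Cdkn2b was at 85.0 ± 2.14, Cdkn1b at 67.0 ± 0.904 and Cdkn1a at 47.0 ± 1.04 TPM. Gene counts do not tell the transcripts of Cdkn2a apart. Cdkn1c and Trp73 had no count, with limits of 0.155 and 0.0564 TPM.

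The long nuclear RNAs Malat1 and Neat1 varied between the libraries. Malat1 stood at 1566, 2254 and 1708 TPM and Neat1, the scaffold of paraspeckles, at 41.7, 141 and 56.2 TPM. Replicate 2 was highest in both. The CV of Neat1 was 66.9%, where counting gives 0.720%, the largest among the 10330 genes with a mean of at least 100 counts. Of those genes only 59 (0.571%) had a CV over 20%. The most distant library was replicate 2 for 33 of them, replicate 1 for 17 and replicate 3 for 9. H19, of the imprinted Igf2 region, had 0, 1 and 1 counts, and Xist, the RNA of the inactive X chromosome in female cells, had 2, 6 and 2.

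A single member held most of the level in many of the gene families. Actb held 80.0% ± 0.19 of the summed TPM of 6 actins. Vim held 99.97% of its type of intermediate filament, with Des at 1.35 TPM. Myh9 held 84.1% ± 0.38 of 4 nonmuscle and smooth muscle myosin heavy chains. Slc2a1 held 99.9% of the 4 class I glucose transporters, and the insulin-responsive Slc2a4 had no count, with a limit of 0.107 TPM. Pkm was the only pyruvate kinase with a count and Ldha held 97.5% of the lactate dehydrogenases.

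Other families were more evenly shared. Tuba1b held 45.7% ± 0.34 of 7 alpha tubulins. Pdgfra held 51.3% ± 0.90 of the PDGF receptors. Tead2, a partner of Yap1, held 50.02% ± 0.90 of 4 TEAD factors at 122 TPM, before Tead1 at 75.2 TPM. Fosl1 held 38.5% ± 0.68 of the 7 Jun and Fos genes at 158 TPM, before Junb at 90.6 TPM. Cdh11, the mesenchymal cadherin, held 53.8% ± 0.54 of 8 cadherins at 170.1, 174 and 178 TPM, before Cdh2 at 106, 112 and 114 TPM. Igfbp7, in contrast, held 87.1% ± 0.78 of 7 IGF-binding proteins at 220.1 TPM. In each of the 31 families the library ranges of the first and second member did not overlap.

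Genes that mark other cell types were mostly silent. Over 15 lineage lists with 280 genes, 51 (18.2%) reached 1 TPM in all libraries, beside 47.7% of all genes, and 168 (60%) had 3 counts or fewer in each, beside 40.9% of all genes. No count was found for 103. The pooled identity lists gave 93 of 123 (75.6%) present and 17 at the floor, and the matrix lists 100 of 169 (59.2%) and 36. The median level was 25.03 TPM over the identity genes, 5.74 TPM over the matrix genes, 1.16 TPM over the receptor and ligand genes, 0.0256 TPM over the lineage genes and 0.853 TPM over all genes. The lists were put together by hand as recognised markers, with earlier results of these data known. These shares therefore describe the lists and are not independent of the data.

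**Figure D4:**
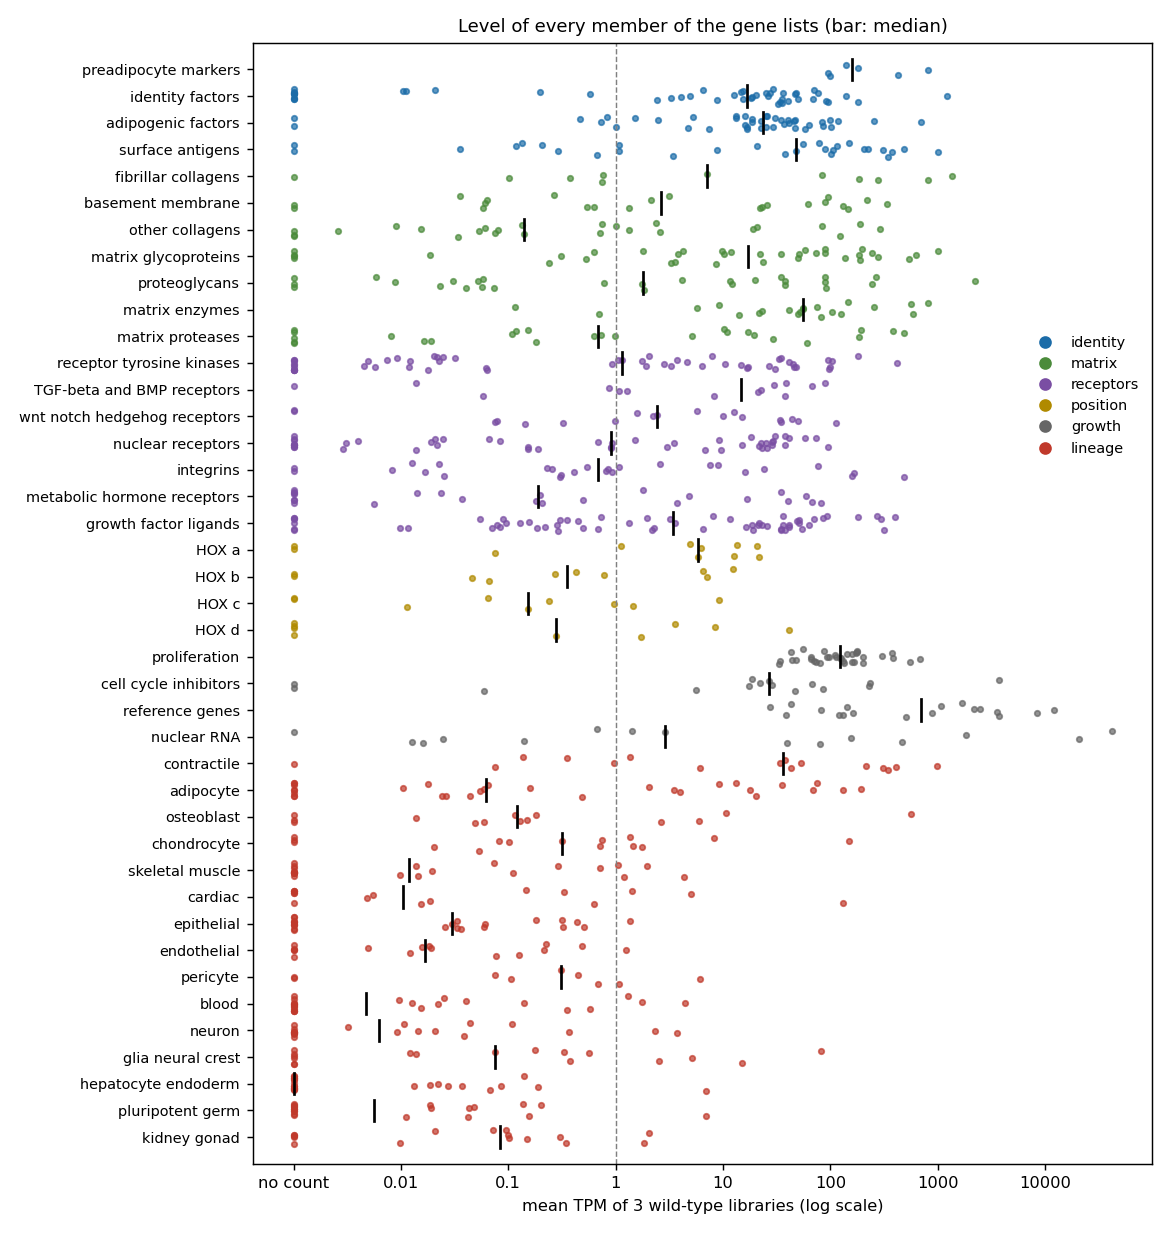
Mean TPM over the 3 wild-type libraries (log scale) of every member of the 41 gene lists, coloured by kind, with a black bar at each list's median and a dashed line at 1 TPM. The identity and growth lists lie mostly right of the line, while the medians of the lineage lists other than the contractile list lie left of it.

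Genes of the mature fat cell ranged from over 100 TPM to no count. Enzymes of fatty acid synthesis were on: Fasn was at 195, 197 and 186 TPM, Scd1 at 134, 131 and 130.3 TPM and Acaca at 69.6 ± 1.56 TPM. Lpl, the lipoprotein lipase, was at 74.4, 74.1 and 76.9 TPM. Plin4, a protein of the lipid droplet surface, was at 35.5 ± 3.37 TPM, and the lipases Pnpla2 and Lipe, which release its fat, were at 9.24 ± 0.819 and 3.97 ± 0.212 TPM. Adipoq (adiponectin) had 0, 0 and 1 counts and Cidec 2, 1 and 0. Plin1, Lep, Retn, Cidea, Ucp1, Car3, Slc2a4 and Adrb3 had none, with limits from 0.0923 TPM for Lep to 0.258 TPM for Cidea. Fabp4, the fatty acid carrier that also serves macrophages and endothelium, was in between at 12.7, 12.9 and 14.3 TPM, and Cd36 had 1, 4 and 1 counts. In all, 12 of 30 genes (40.0%) were present and 15 were at the floor.

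Contractile genes made the exception among the lineage lists, with 10 of 16 (62.5%) present. Cald1 was at 976 ± 32.4, Tpm1 at 409 ± 14.2, Cnn2 at 347 ± 8.30 and Vcl at 212 ± 2.99 TPM, all of which nonmuscle cells also use. Acta2, smooth muscle actin, was at 308, 309 and 305 TPM and Tagln at 45.4, 41.4 and 41.5 TPM. Actg2, a gamma actin of smooth muscle, was at 6.10, 6.27 and 6.12 TPM and Des (desmin) at 0.915, 1.52 and 1.61 TPM. Myocd, the master coactivator of smooth muscle genes, had no count, with a limit of 0.0587 TPM, Myh11 had 3, 8 and 6 counts and Cnn1 11, 7 and 5.

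In the lists of bone and cartilage a few genes stood high above the rest. Among osteoblast genes Spp1 (osteopontin) stood at 534, 567 and 576 TPM, but Sp7, the osteoblast factor, had 0, 3 and 1 counts, and Alpl, Sost and Mepe had none. Runx2, shared by bone and mesenchymal precursors, was at 25.2 ± 1.13 TPM. Among cartilage genes Sox9 stood at 145, 153 and 149 TPM and Sox5 at 8.17 TPM, while Acan was at 1.77 ± 0.101 TPM, and Matn1, Matn3 and Col9a1 had no count. Of 14 osteoblast genes 4 were present, and of 15 cartilage genes 5.

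The muscle regulators listed were off, except Pax3. Myod1, Myf5, Myog, Myf6 and Pax7 had no count, with limits of 0.162 TPM for Myod1 and 0.0703 TPM for Pax7. Pax3, of muscle and neural crest precursors, was the highest member of its list at 4.14, 4.24 and 4.52 TPM. Of 22 skeletal muscle genes 3 reached 1 TPM in all libraries: Pax3 and the muscle fibre genes Mylpf and Tnnc2. Tnnt2, cardiac troponin T, stood at 119, 139 and 133 TPM from 1492, 2132 and 1887 counts, by far the highest of 16 cardiac genes. Next was Gata6 at 4.99 ± 0.194 TPM, and Nkx2-5, Actc1, Myh7, Myl2, Hand2 and Ryr2 had no count.

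Epithelial, endothelial and blood genes stayed at the floor or barely above. Of 23 epithelial genes 1 reached 1 TPM in all libraries, Krt7 at 1.14, 1.65 and 1.28 TPM. Epcam had no count, with a limit of 0.146 TPM, and Cdh1 (E-cadherin) had 2, 2 and 5 counts. The summed level of the list was 2.86, 4.09 and 3.23 TPM. No gene of 16 endothelial markers passed in all libraries, the highest, Egfl7, being at 0.678, 1.20 and 1.85 TPM, and without replicate 1 it would pass. Pecam1 had 4, 5 and 5 counts. Of 24 blood genes Cd68, at 3.94, 6.08 and 3.19 TPM, and Csf1r, at 1.65, 1.89 and 1.73 TPM, passed, and Ptprc (CD45) had 2, 0 and 2 counts, with the T cell genes Cd3e, Cd3g and Cd8a at none. Of 9 pericyte genes only Anpep, at 6.09 ± 0.573 TPM, passed, and Rgs5 had 5, 6 and 8 counts. Only 2 of these 9 were at the floor, which held 40.9% of all genes, so most pericyte genes had low counts above it.

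Of neuronal, liver, germline, kidney and gonad markers more than 50% in each list were at the floor, and of 17 glial and crest markers 8 were. Of 20 neuronal genes Tubb3, at 3.71 ± 0.782, and Map2, at 2.32 ± 0.145 TPM, passed, and Rbfox3, Snap25 and Neurod1 were among 9 with no count. Of the glial and crest genes 4 passed, led by Pmp22 at 86.1, 81.5 and 78.4 TPM, a membrane protein that fibroblasts also make, and Sox10 had 2, 5 and 0 counts. In the liver and endoderm list Apoa2 alone of 24 genes passed at 7.07, 7.41 and 6.23 TPM, while Alb had 0, 1 and 1 counts. The exons of Apoa2 overlap those of Tomm40l on the opposite strand (14.6 TPM). In the list of pluripotent and germ cells Sycp3 alone of 20 passed at 6.70, 6.98 and 7.17 TPM, and its exons overlap those of Chpt1 (26.2 TPM) on the opposite strand. The part of such overlaps in these values was not tested. Pou5f1 had 0, 1 and 0 counts and Sox2 none. Of 16 kidney and gonad genes Inha, at 2.06 ± 0.229, and Star, at 1.83 ± 0.119 TPM, passed.

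Large families of specialised genes were almost empty. Of 1107 olfactory receptor genes none reached 1 TPM in all libraries and 1061 had no count. Of 330 vomeronasal receptor genes 308 had no count and 1 passed, Vmn1r43 at 2.44, 1.53 and 3.31 TPM. Of 50 keratin-associated genes 49 had no count. Among 52 keratins 3 passed, led by Krt80 at 9.15, 10.9 and 11.2 and Krt10 at 7.81, 9.24 and 8.20 TPM. Clustered protocadherins were partly on. In the beta cluster 11 of 22 passed, led by Pcdhb16 at 21.5 ± 0.680 TPM, and all 14 alpha genes had no count, but 12 of those share at least 50% of their words with other genes. In the gamma cluster 5 of 22 passed, led by Pcdhgc3 at 111 ± 4.06 TPM, whose last exons belong to all genes of that cluster.

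Sequence shared between genes limits some of these levels. Of 23372 genes matched to a transcript, 1457 (6.23%) share at least 50% of their 50-base words with other genes or repeat them. The share was 10.1% among genes at the floor and 3.52% among genes present in all libraries. Of 84 ribosomal protein genes 78 were present, with a median of 1926 TPM. At least 50% of words were shared in 29 of the 84, but in none of the 5 at the floor was such a share found. Rpl26 had no count, and Rpl30, Rpl34 and Rps27 were at 1.11, 3.29 and 7.55 TPM. Every ribosome needs their proteins, and the reason for these low values was not tested. Eno1, an enzyme of glycolysis, was at 0.0992 TPM and the separately annotated copy Eno1b at 104 TPM. Levels of such genes are uncertain. So are those of genes whose exons overlap a gene on the opposite strand, if strand was not used in counting: among the genes named, Fgfr1, Ddr2, Cd34, Cd81, Cebpd, Nfix, Zeb2, Tagln, Fosl1, Igfbp7 and Plin4 have such a partner. Among the highest genes the same caution holds for Rmrp (95.7% of words shared), Ftl1 (78.9%), Eef1a1 (59.2%) and S100a4 (56.3%).

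The level of a gene went with the base composition of its promoter, which the choice of libraries did not use. A CpG island is a stretch rich in CG dinucleotides, the usual promoter of broadly used genes, and a TATA box lies just before the start of many tightly regulated or very strongly transcribed genes. RefSeq windows of 300 bases on GRCm38.p6, from 250 bases before to 50 after a start, were matched to 15721 genes (64.4%), so the shares cover those alone. A window was called CpG-rich at an observed to expected ratio of CG of at least 0.6 and a GC content of at least 50%. Of windows of genes without a count 11.7% were CpG-rich, and 15.6% when olfactory and vomeronasal receptors were left out. Classes of level were set by the threshold reached in every library. The share was 22.4% for genes with 1 to 3 counts at most, 32.7% for the others under 1 TPM, 59.3% for 1 to 10 TPM, 78.4% for 10 to 100 TPM, 79.6% for 100 to 1000 TPM and 72.4% for 1000 TPM or more, beside 46.2% of all windows. The letters TATAAA between 45 and 16 bases before the start, on the strand of the gene, were in 5.59%, 4.16%, 2.55%, 1.55%, 0.780%, 2.03% and 5.26% of those classes in the same order, beside 2.90% of all windows. With either strand counted, TATAAA or TTTATA, the shares were 6.77%, 4.85%, 3.28%, 1.80%, 0.865%, 2.22% and 5.26%, beside 3.46% of all. The highest class holds only 76 windows, and its share rests on 4 of them. The hexamer was least frequent in the middle of the range and more frequent at both ends.

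**Figure D5:**
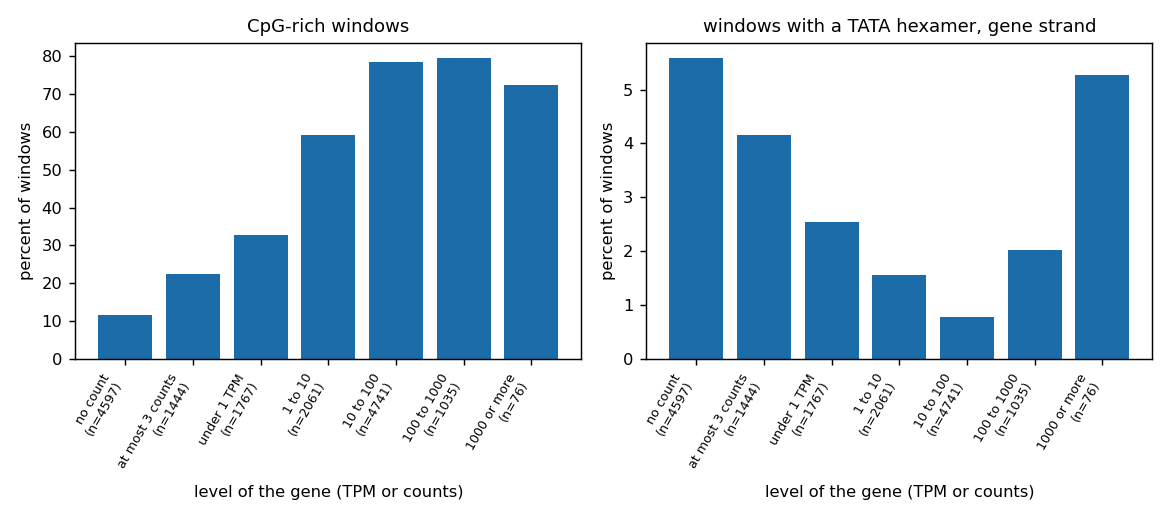
Percent of 300-base promoter windows that are CpG-rich (left) and that hold TATAAA on the gene strand between 45 and 16 bases before the start (right), by the level a gene reached in all 3 libraries, with the number of windows under each bar. CpG-rich windows rise from 11.7% to 79.6% and stand at 72.4% in the highest class. The hexamer falls from 5.59% to 0.780% and stands at 5.26% (4 of 76 windows) in the highest class.

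The 100 bases before the start are shown for 6 genes, chosen with their levels known, to show these compositions: the abundant S100a4 and Vim with the hexamer, the abundant Mdm2 and the marker Twist2 with CG dinucleotides (of the 4 markers with a matched window, Twist2 alone was CpG-rich, and Pdgfra, Prrx1 and Dlk1 were not), and the fat cell genes Adipoq (1 count in all) and Plin1 (none) with neither. Capitals mark CG dinucleotides, which read the same on both strands, and TATAAA on the strand printed, and each run ends at the base before the start.
S100a4, chr3:90603670-90603769, plus strand: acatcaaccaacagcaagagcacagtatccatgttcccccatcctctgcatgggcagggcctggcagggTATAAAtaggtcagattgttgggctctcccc
Vim, chr2:13574211-13574310, plus strand: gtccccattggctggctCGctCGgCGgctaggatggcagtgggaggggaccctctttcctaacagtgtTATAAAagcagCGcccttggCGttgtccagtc
Mdm2, chr10:117710759-117710858, minus strand: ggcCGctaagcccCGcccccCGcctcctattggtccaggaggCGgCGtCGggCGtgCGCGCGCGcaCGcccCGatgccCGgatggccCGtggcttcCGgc
Twist2, chr1:91801361-91801460, plus strand: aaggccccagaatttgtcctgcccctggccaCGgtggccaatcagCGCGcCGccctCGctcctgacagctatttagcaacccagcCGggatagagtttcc
Adipoq, chr16:23146436-23146535, plus strand: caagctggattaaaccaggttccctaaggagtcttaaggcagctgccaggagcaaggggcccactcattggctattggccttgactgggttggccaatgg
Plin1, chr7:79732777-79732876, minus strand: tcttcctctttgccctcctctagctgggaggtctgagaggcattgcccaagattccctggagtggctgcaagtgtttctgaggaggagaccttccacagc

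In S100a4 the hexamer begins 31 bases before the start and in Vim 32 bases before it. These 100 bases hold 16 CG dinucleotides in Mdm2, 6 in Twist2, 5 in Vim and none in S100a4, Adipoq and Plin1. S100a4, without CG there, was at 7921 ± 501 TPM, and Mdm2 was at 3711 ± 193 TPM, so CG-poor and CG-rich starts both occur among the 25 highest genes. Over the 115 matched lineage genes at the floor 23.5% of windows were CpG-rich, and over the 59 above it 32.2%. A match to these letters is a description of the sequence and not a measured binding site.

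Ube2cbp, the symbol under which the table holds Ube3d, a gene named for an E3 ubiquitin ligase and the target of the knockout made in the same study, was a low to middling transcript in these cells. It stood at 7.95, 10.2 and 8.36 TPM from 145, 229 and 173 counts, at rank 8809 of 23129. Its gene lies at chr9:86307234-86464916 on the minus strand.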

How the data were processed

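The authors deposited a table of raw read counts per gene, with gene coordinates and exon length, and the libraries were used as labelled. Per the submitters' processing notes, STAR 2.6.1d, featureCounts 1.6.3 and mm10 or GRCm38 were named without a role. No source used here gives the strand setting, the treatment of reads with several alignments or the annotation release, so antisense pairs and near-identical copies are uncertain. Every column of samples in the table was mapped, and a second deposited table was not analysed here.

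Rn45s was left out, and CPM and TPM were computed from the counts and the deposited exon length (Python 3.11.15, pandas 2.3.3, NumPy 2.4.6, figures with matplotlib 3.10.9). Scaling factors for the alternatives came from edgeR 4.0.16 and DESeq2 1.42.0 in R 4.3.3. No test was run, since the 3 libraries form 1 group; the code was tested on simulated data. A gene was called present at 1 TPM or more in all 3 libraries and at the floor at 3 counts or fewer in each. Ranks cover 23129 genes of at least 200 bases. The other alternatives were an effective length, Rn45s kept, genes under 200 bases left out of the total, other thresholds and leaving out each library.

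Promoter windows came from RefSeq, and shared sequence was the share of 50-base words of a gene's transcript (GENCODE M21) that recur. The members, the 41 lists, 13 symbol patterns and 31 families were chosen with earlier results of these data known. Of the listed symbols, 9 were not matched in the table. Named genes are the 25 highest by TPM, the 6 markers, up to 8 highest members and the members without a count of each list, the first and second members of families, and Ube2cbp. Other genes, among them Cebpa, Pparg, Cd34, Igf1, Igf2, Adipoq, Xist, the neighbours of Mdm2 and the low ribosomal protein genes, were chosen after their values were seen. The values of a few list members are not reported here.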

Additional observations from a re-analysis of the deposited data

How the results depend on the processing

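Counts of genes were taken to move at a change of over 1.5 times, and levels and shares at a change of over 1 SD between libraries. By these rules 6 of 106 summary values moved. With a floor of 0 counts in every library in place of 3 or fewer, the members at the floor went from 168 to 103 in the lineage lists, from 36 to 18 in the matrix lists and from 70 to 37 in the receptor and ligand lists. The share of TPM held by the top 100 genes, 33.1%, was 32.1% with Rn45s kept in the total, 42.8% with an effective length and 33.6% with genes under 200 bases left out of the total. The effective length, which takes 200 bases off each gene with a lower bound, raised short genes such as Rmrp. Mdm2 stood at rank 5 by CPM and 36 by effective length. Leaving out replicate 1 added 1 gene at 1 TPM to the endothelial list. Of the 31 genes tried, the TPM of 27 moved with the effective length, of 18 with Rn45s kept and of 8 with short genes left out of the total, and the rank of 27 moved by CPM. Among the 41 single lists the count at the floor moved in 21 with a floor of 0 counts and in 10 with a floor of 10 counts. Scaling factors lay between 0.996 and 1.006, and they moved the TPM of none of the 31 genes tried beyond its SD. Leaving out a library cannot shift a mean of 3 libraries by more than their SD. Under that rule no TPM could move, so it says nothing on how steady these levels are. The same holds for the share of the top 100 genes, which is among the 106 summary values. No paired analysis was possible because only the wild-type libraries were described and no value comes from a test. Depth limits statements on low genes: a count of 3 in a gene of 1000 bases is worth 0.245 to 0.301 TPM.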

Other observations

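Of 1059 genes on the X chromosome 389 reached 1 TPM in all libraries. Of 50 genes on the Y chromosome 49 had no count, and the other, Erdr1, had 3485 counts over the 3 libraries. Each gene was placed by the first chromosome listed for it. Whether the counts of Erdr1 come from the Y chromosome was not tested.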
